A study of Mus musculus with 9 samples.

Results

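*Rora* and *Rorb* encode nuclear receptors of the retinoid-related orphan receptor (ROR) family, and they are the 2 members described here, of 21457 features in the table of cholinergic nuclei. They were chosen by their measured levels, because *Rora* falls steeply from cluster S1 over S2 to S3 and to visceral motor neurons (MNs). The values that chose them are the levels over the 21 clusters, which are therefore given as a description, with no test.

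RORs are transcription factors that usually bind DNA as monomers, at the motif AGGTCA preceded by a stretch rich in A and T. RORα, the product of *Rora*, is needed for the maturation of cerebellar Purkinje cells, which are lost in the staggerer mouse, a *Rora* mutant. In the circadian clock RORs activate *Arntl* (BMAL1) at elements that the REV-ERB repressors, encoded by *Nr1d1* and *Nr1d2*, also bind. *Rorb* is known from the cerebral cortex, the retina and inhibitory interneurons of the dorsal horn.

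The nuclei came from spinal cords of Chat-IRES-Cre::CAG-Sun1-sfGFP mice aged 8 weeks, in which Cre expressed from *Chat*, the acetylcholine synthesis gene, leaves a permanent GFP tag on the nuclear envelope. A nucleus that used *Chat* only earlier in life would thus be sorted too. There were 12 mice in 3 pools of 4, replicate 1 of both sexes, replicate 2 of males and replicate 3 of females. The cords of a pool were cut into a cervical, a thoracic and a lumbar/sacral piece, which gives 9 libraries, and the 3 libraries of a replicate come from the same mice. All mice carried the same alleles and none was treated. The authors' labels assign 16042 of 34231 nuclei to 21 cholinergic clusters, 3 of skeletal MNs (S1 called Type 3, S2 alpha, S3 gamma), 10 of visceral MNs (V1 to V10) and 8 of cholinergic interneurons (I1 to I8).

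Levels are in CPM. For this the corrected counts of all nuclei of 1 cluster in 1 library were added up and scaled to a total of 1000000, where the library had at least 10 such nuclei. Corrected counts are whole numbers that a model made from the molecule counts, so they carry no simple counting error. The median total per nucleus ran from 4712 to 16127 across libraries, and the 3 lumbar/sacral libraries lay between 4712 and 7175. The skeletal marker *Tns1* was at 354 to 400.3 CPM in S1, S2 and S3. The alpha markers *Stk32a* and *Sv2b* were highest in S2 and the gamma markers *Nrp2* and *Plekhg1* in S3, as the cluster labels say. The Type 3 marker *Rreb1* was highest in S1, also as labelled. Some markers were highest in other clusters. *Gpr149*, the other Type 3 marker, was higher in V9 than in S1. The alpha marker *Rbfox3* was highest in I7, at 576 CPM, and at 229 in S2, above 35.8 in S1 and 64.3 in S3. *Prph*, listed with *Tns1* as a skeletal marker, was highest in V4, at 205 CPM, and at 144 to 189 in S1, S2 and S3. The paper finds *Prph* in visceral MNs too. Of the distinct cell barcodes, 33 of 16009 occurred in more than 1 library.

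A pair of libraries went against their region labels. In skeletal MNs *Hoxc5* was at 16.1 and 15.6 CPM in cervical replicates 1 and 3 but at 82.5 in the library labelled cervical replicate 2. It was at 101.5 and 94.5 CPM in thoracic replicates 1 and 3 and at 9.44 in the library labelled thoracic replicate 2. *Hoxa9* showed the same crossing, with 9.04 CPM in the library labelled cervical replicate 2 and 0.629 in that labelled thoracic replicate 2. Cervical and thoracic cord are therefore compared by values only. The tested contrast set lumbar/sacral libraries against the mean of all cervical and thoracic libraries. With all 9 libraries an exchange of these labels leaves the difference itself unchanged, but it can change the SE and p.

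*Rora* lies on the plus strand at chr9:68653786-69388246 (GRCm38) and spans 734 kb, within which the annotation places the antisense gene *Gm15511* at chr9:69348889-69364247. *Rorb* lies on the minus strand at chr19:18930605-19111196 and spans 181 kb. Intronic reads counted, since the authors aligned to a pre-mRNA reference, so a long gene collects more reads, and levels of the 2 genes are not compared with each other here.

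*Rora* was highest in Type 3 MNs (S1), with a mean of 12045 ± 1638 CPM (SD, n = 9 libraries). Its level there was 12591, 11582 and 15626 CPM in cervical replicates 1 to 3. It was 12637, 10496 and 10519 in thoracic replicates 1 to 3, and 12921, 10715 and 11318 in lumbar/sacral replicates 1 to 3. The highest value was in cervical replicate 3, and the lowest S1 library was still above every S2 library.

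Alpha MNs (S2) came next, at 6007 ± 1300 CPM, with 5367, 3674 and 5589 in cervical, 6573, 6680 and 7745 in thoracic and 5942, 7587 and 4907 in lumbar/sacral replicates 1 to 3. The library labelled cervical replicate 2 was the lowest. Gamma MNs (S3) were at 890 ± 157 CPM, from 674 in thoracic replicate 3 to 1219 in cervical replicate 3. The order S1 over S2 over S3 held in 9 of 9 libraries. *Rora* was 2.12 ± 0.616 times as high in S1 as in S2 (range 1.36 to 3.15) and 7.0 ± 2.32 times as high in S2 as in S3 (4.22 to 11.5). The ratio of S1 to S3 was steadier between libraries, at 13.6 ± 0.962 (12.8 to 15.6).

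**Figure D1:**
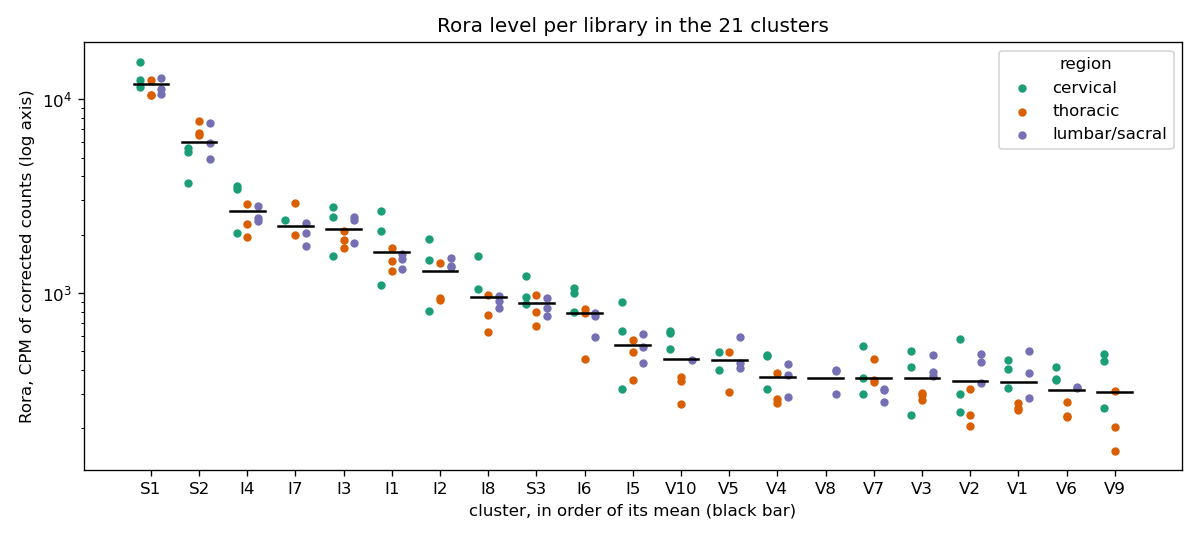
Level of *Rora* in CPM (log axis) in each library and cluster, with clusters in order of their mean (black bars) and points coloured by the labelled region. S1 and S2 stand above all other clusters, S3 lies among the interneurons at 890 CPM, and the visceral clusters run together between 308 and 457 CPM.

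Below S2 the order was made of interneurons and then of visceral MNs. I4 had 2637 ± 585 CPM, I7 2224 ± 403 (n = 6 libraries), I3 2125 ± 419, I1 1633 ± 472 and I2 1301 ± 349. I8 followed at 956 ± 271 (n = 8), then S3, I6 at 783 ± 183 and I5 at 537 ± 172. Gamma MNs thus held less *Rora* than the cholinergic interneurons as a class, which were at 1523 ± 328 CPM, in 9 of 9 libraries. The 10 visceral clusters followed, from 457 ± 140 in V10 (n = 7) to 308 ± 132 in V9 (n = 6). Between them lay V5 at 447 ± 90.3 (n = 7), V4 at 366 ± 80.8, V8 at 365 ± 57.2 (n = 3), V7 at 362 ± 82.4, V3 at 362 ± 90.8, V2 at 349 ± 126, V1 at 346 ± 91.7 and V6 at 314 ± 65.3 (n = 8).

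Of the 20 pairs of neighbours in this order, 4 differed by more than the larger of their SDs. These were S1 over S2, S2 over I4, I3 over I1 and I6 over I5. The other 16 steps, among them every step within the visceral clusters and I4, I7 and I3 at the top of the interneurons, were within the spread of the libraries. The order of the 5 highest clusters by their means was the same without replicate 2 or 3, and without replicate 1 I3 and I7 changed places.

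S1 and S2 together held 17.5% of the nuclei and 68.5% of all corrected counts of *Rora*. Most nuclei of every class had at least 1 corrected count, on average 99.5 ± 0.620% of skeletal, 98.2 ± 0.665% of interneuron and 85.7 ± 6.66% of visceral nuclei. After thinning each nucleus to 4600 corrected counts the shares were 97.9%, 95.4% and 72.4%. A share of nuclei therefore says little about *Rora*, whose clusters differ in level.

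How much of the low level in visceral MNs comes from their own transcripts was not tested. *Rora* in visceral nuclei was at 6.67 ± 1.09% of its skeletal level (n = 9), and *Tns1* was at 8.32 ± 0.976% of its own. In interneurons the picture differed, with *Rora* at 28.0 ± 3.57% of its skeletal level and *Tns1* at 1.53 ± 0.420%. In every library the interneuron share of *Rora* (lowest 22.9%) was above that of *Tns1* (at most 2.16%). The visceral shares of the 2 genes overlapped (5.02 to 7.94% for *Rora*, 7.18 to 10.4% for *Tns1*). Both visceral ranges lay above the interneuron share of *Tns1*. The part of RNA from other nuclei in these levels was not tested.

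Single nuclei showed a wide range within alpha MNs. Per 10000 corrected counts of a nucleus, the median of *Rora* was 117.6 in S1, 53.9 in S2 and 8.22 in S3. The upper quartile was 1.43 times the lower in S1, 2.70 times in S2 and 2.13 times in S3. Of the S2 nuclei, 14.3% lay below the 95th percentile of S3 and 3.42% lay above the median of S1. No S1 nucleus of 1528 lay below the 95th percentile of S3, whose value was 18.2.

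By region, *Rora* was not called in any class or cluster tested. The test was limma on log2(CPM + 5) of the library sums, lumbar/sacral against the mean of cervical and thoracic libraries, with p adjusted over all genes, and adjusted p under 0.05 made a call. In S1 the log2 difference was -0.06 ± 0.20 (SE, n = 9 libraries, limma adjusted p = 0.989), where 0% of 10025 genes were called and 439 had an unadjusted p under 0.05. In S2 it was 0.06 ± 0.25 (limma adjusted p = 0.982), with 0% of 10387 genes called and 245 at an unadjusted p under 0.05. In S3 it was -0.09 ± 0.16 (limma adjusted p = 0.899), beside 0.0711% of genes called. The median log2 difference of all genes tested was 0.10 in S1, 0.13 in S2 and 0.14 in S3, so *Rora* lay a little below it in each. The groups overlapped in all 3 clusters, and the sign in S2 turned, to -0.05, without the male-pool libraries labelled cervical and thoracic.

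In visceral MNs *Rora* differed by 0.20 ± 0.13 (limma adjusted p = 0.666), beside 4.27% of genes called. The make-up of this class by cluster differed between regions. With at least 10 nuclei, V8 was present only in lumbar/sacral libraries and V9 only in cervical and thoracic ones. V2 made up 5.22 to 20.1% of visceral nuclei by library. The part of this make-up in visceral differences was not tested. In interneurons it differed by 0.12 ± 0.20 (limma adjusted p = 0.9997), beside 0.051% called, and by -0.01 without the same male-pool libraries. The cervical values of the pools ran from 1134 to 2169 CPM in interneurons and enclosed all those of the other regions. A p that misses the threshold does not show equal levels, and the SEs bound the differences only loosely.

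Males and females were each 1 pool of 4 mice, so sex is given by values with no test, and sex and pool cannot be told apart. *Rora* in skeletal MNs had levels of 4500, 5259 and 4747 CPM in libraries of males labelled cervical, thoracic and lumbar/sacral, and of 6793, 5193 and 5018 in those of females. In interneurons it had 1134, 1294 and 1411 CPM in the male and 2169, 1187 and 1542 in the female pool. The pools overlapped in both classes, and the female cervical library was the highest. *Rorb* in interneurons had 37.5, 33.0 and 27.6 CPM in the male and 37.8, 49.3 and 26.2 in the female pool, which also overlapped.

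*Rorb* was sparse and followed another order, led by the visceral cluster V2. V2, I6, I5 and I2 held 16.7% of the nuclei and 75.7% of all *Rorb* corrected counts, V2 alone 39.2%. The mean was 140.0 ± 101 CPM in V2, 106 ± 49.4 in I6, 86.9 ± 42.7 in I5 and 53.4 ± 19.4 in I2 (n = 9 each). V5 came next at 26.3 ± 40.6 (n = 7), a mean carried by 108 CPM in thoracic replicate 1, where V5 had 15 nuclei, and by 53.4 in lumbar/sacral replicate 1. S2 was at 18.5 ± 10.4 CPM, and all other clusters were at 12.6 CPM or less, down to 1.08 ± 2.24 in V7. None of the 20 neighbouring steps exceeded the larger SD of the pair, so the order of *Rorb* over clusters is loose.

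**Figure D2:**
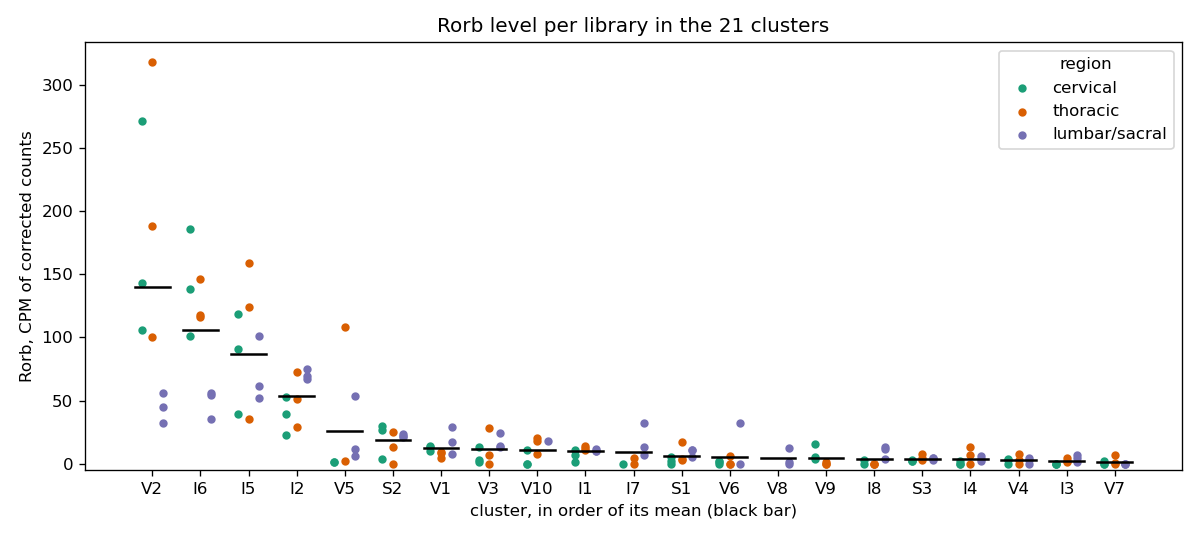
Level of *Rorb* in CPM in each library and cluster, with clusters in order of their mean (black bars) and points coloured by the labelled region. V2, I6, I5 and I2 stand highest, and the lumbar/sacral points of V2 and I6 lie at the bottom of their clusters.

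In single nuclei *Rorb* was found at 1 corrected count or more in 51.2% of V2, 40.3% of I6, 37.0% of I5, 24.6% of I2 and 13.3% of S2 nuclei. At least 5 corrected counts were present in 10.8% of V2, 4.23% of I6 and 2.57% of I5 nuclei, and the highest nucleus had 28, in V2. In S3, at the same preparation, the mean share was 2.73 ± 1.38%, and in I3 1.25 ± 1.05%. The share in S2 was 11.2 ± 6.59% over libraries and 7.30% after thinning, against 1.42% in S3 after thinning. Among skeletal MNs *Rorb* was higher in S2 than in S1 and than in S3 in 8 of 9 libraries, and it was at 0 in the 26 S2 nuclei of thoracic replicate 3.

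Over the 21 clusters *Rora* and *Rorb* had no common pattern, with a Pearson r of -0.07 between their mean log2(CPM + 5) values. This is a description over clusters that share 9 libraries.

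*Rorb* differed by region in V2 and I6, the clusters where it was highest. In V2 it was at 143, 272 and 106 CPM in cervical, 318, 100.5 and 188 in thoracic and 32.2, 44.5 and 56.0 in lumbar/sacral replicates 1 to 3. All lumbar/sacral libraries were below all others. *Rorb* fell by 1.87 ± 0.35 on the log2(CPM + 5) scale in lumbar/sacral V2 (limma adjusted p = 0.0102), beside 3.07% of 10318 genes called. The share of V2 nuclei with *Rorb* was 18.2 ± 7.24% in lumbar/sacral and 56.9 ± 24.4% in the other libraries, and 13.8% and 40.4% after thinning. Without the 2 male-pool libraries named above the difference was -1.89 (limma adjusted p = 0.00115). The call was lost without lumbar/sacral replicate 1 (adjusted p = 0.0741) or replicate 2 (adjusted p = 0.0581), while the values stayed at -1.68 and -1.89.

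In I6 *Rorb* was at 139, 101 and 186 CPM in cervical, 118, 147 and 116 in thoracic and 54.5, 35.2 and 55.7 in lumbar/sacral replicates 1 to 3, again with no overlap. It fell by 1.38 ± 0.22 (limma adjusted p = 0.00968), beside 0.845% of genes called. The share of I6 nuclei with *Rorb* was 17.5 ± 3.39% in lumbar/sacral against 50.3 ± 10.0% elsewhere. The call was lost without lumbar/sacral replicate 2 (adjusted p = 0.0776), where the value was -1.19. V2, I2, I5 and I6 were added as clusters to test after their *Rorb* levels were seen.

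I2 did not share this difference. Its *Rorb* values were 39.7, 22.6 and 53.1 CPM in cervical, 72.7, 29.3 and 51.6 in thoracic and 69.8, 66.7 and 74.9 in lumbar/sacral replicates 1 to 3, so that the groups overlapped only through thoracic replicate 1. The log2 difference was 0.68 ± 0.28 (limma adjusted p = 0.684), beside 0.511% of genes called. In I5 it was -0.25 ± 0.43 (limma adjusted p = 0.987), beside 0.0286% called, and values from 35.6 to 159 CPM overlapped. The difference between clusters was tested directly, within libraries. The region effect on *Rorb* was lower in V2 than in I2 by 2.55 ± 0.36 on the log2 scale (limma adjusted p = 0.000124), beside 4.58% of genes called. In I6 it was lower than in I2 by 2.06 ± 0.27 (limma adjusted p = 1.24e-05), beside 2.52% called. Leaving out any 1 library kept both, at -2.22 to -2.82 and -1.85 to -2.22.

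**Figure D3:**
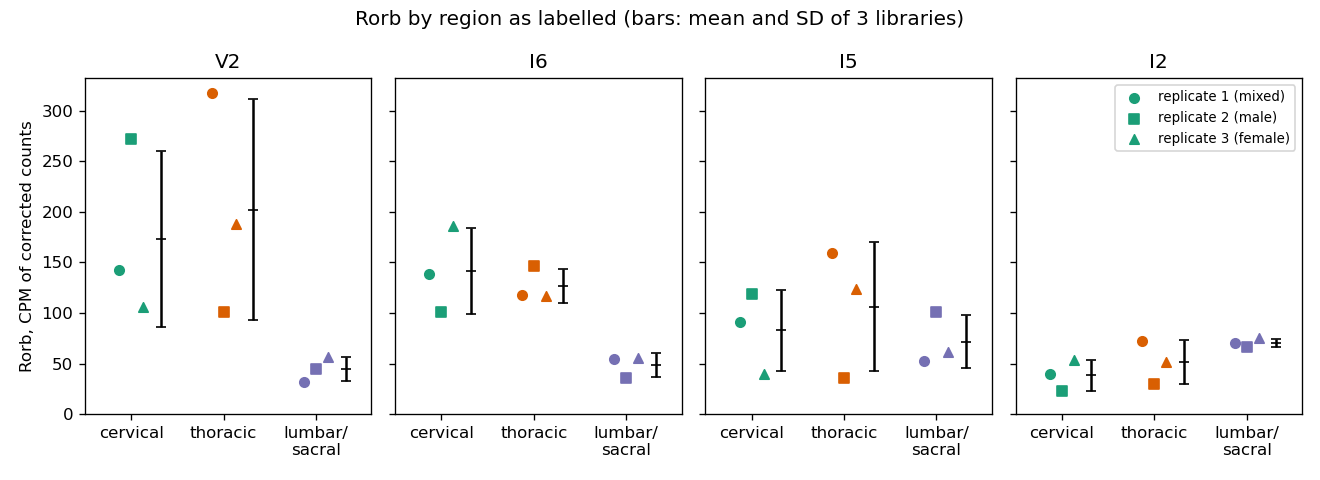
Level of *Rorb* in CPM in the 3 libraries of each labelled region in V2, I6, I5 and I2, with marker shapes for the pools and bars for the mean and SD. Lumbar/sacral libraries lie below all others in V2 (32.2 to 56.0 CPM) and I6 (35.2 to 55.7), overlap them in I5 and are near the top in I2.

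Markers of other cells were looked at in the same sums. In V2 the 4 astrocyte markers together were at most 6.94 CPM in any library, and the 4 oligodendrocyte markers were at 28.8 to 56.5 CPM in cervical, 45.2 to 55.4 in thoracic and 37.6 to 64.6 in lumbar/sacral libraries. The listed skeletal markers *Tns1* and *Prph* moved with region in V2, summing to 46.8 to 93.1 CPM in lumbar/sacral and 91.3 to 271 elsewhere. *Prph* is also a gene of visceral MNs, and in V2 it averaged 125 CPM beside 20.9 for *Tns1*. The sum is therefore mostly *Prph* and is no measure of skeletal RNA in V2. The part of these markers in the *Rorb* difference was not tested. In I6 they were at 19.7 CPM or less in every library, but neuron markers moved with region there. The 2 excitatory markers summed to 65.4 to 68.8 CPM in lumbar/sacral and 18.8 to 50.6 in the other I6 libraries, and the 4 inhibitory markers to 26.2 to 38.9 against 7.98 to 20.8, both without overlap. Their part was not tested either. Cervical replicate 3 and the library labelled thoracic replicate 2 each held only 21 V2 nuclei.

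For classes as a whole the region difference of *Rorb* was not called. In interneurons it was lower by 0.59 ± 0.14 in lumbar/sacral libraries (limma adjusted p = 0.316), at 21.5 to 27.6 CPM against 33.0 to 49.3 with no overlap. In visceral MNs, whose make-up by cluster differed between regions as given above, it was lower by 0.56 ± 0.56 (limma adjusted p = 0.854). In S1 and S2 it was higher by 0.60 ± 0.42 and 0.66 ± 0.58 (limma adjusted p of 0.989 and 0.975). *Rorb* did not pass the filter in S3.

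Between cervical and thoracic libraries as labelled, *Rorb* in V2 overlapped. Without the 2 male-pool libraries it was at 143 and 106 CPM in cervical and at 318 and 188 in thoracic V2. In I6 the same libraries gave 139 and 186 CPM in cervical and 118 and 116 in thoracic. *Rora* in S2, again without them, was at 5367 and 5589 CPM in cervical and at 6573 and 7745 in thoracic.

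Other genes of the ROR pathway were described from fixed lists. Of 19 clock genes around the ROR and REV-ERB loop, 18 were in the file. *Arntl* was highest in S1, at 133 CPM, and at 74.4 in S2, 63.8 in S3 and 32.3 in I2, the lowest cluster. *Nr1d2* was also highest in S1, at 53.1 CPM, and *Nr1d1* did not exceed 8.14 CPM. *Cry2* was highest in S1 at 106 CPM, whereas *Cry1*, its paralog, was lowest there at 2.20 CPM. Among cofactors the coactivator *Ncoa1* was highest in S1 at 668 CPM, and the corepressor gene *Nrip1* and the coactivator *Ppargc1a* in S3, at 307 and 259 CPM. Of 7 genes that depend on RORα in Purkinje cells, *Itpr1* was highest in I8, and *Shh*, *Pcp2*, *Pcp4* and *Calb1* were at 8.74 CPM or less in all 21 clusters.

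By limma, none of the 44 to 58 genes of these lists tested by region was called in S1, S2, S3, interneurons, I2, I5 or I6, where the share over all genes was also under 1%, as given above, so that these counts say nothing particular about the lists. In visceral MNs 50 listed genes were tested, and 4.27% of all genes were called. The called listed genes included *Rarb* (1.77), *Itpr1* (1.52) and *Rxrg* (1.22), higher in lumbar/sacral libraries. They also included 3 lower ones (*Chodl* -1.17, *Per2* -0.68 and *Ncoa3* -0.59). The part of the make-up of the class by cluster in these differences was not tested. In V2, where 50 were tested and 3.07% of all genes were called, *Rarb* (3.45 ± 0.45), *Itpr1* (2.62 ± 0.43) and *Esrrg* (0.88 ± 0.20) rose in lumbar/sacral libraries, on the log2 scale with limma adjusted p from 0.000754 to 0.0283. *Vdr* fell by 1.75 ± 0.38 and *Esr1* by 0.90 ± 0.21 (limma adjusted p of 0.0259 and 0.0350). No clock gene and no cofactor was called in V2.

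The 10 genes most like *Rora* over the 21 clusters, by Pearson's r of mean log2(CPM + 5) among 10842 genes, were *Vmp1* (0.91), *Dync1i1* (0.89), *Pantr1* (0.89), *Gpatch8* (0.88), *Plch2* (0.88), *Lgmn* (0.86), *Kcna2* (0.86), *Wwox* (0.86), *Trpm2* (0.86) and *Ldhb* (0.86). These are descriptions over clusters that share libraries. *Dync1i1*, a dynein intermediate chain, was at 1158 CPM in S1, 1056 in S2 and 363 in V10. *Kcna2*, a voltage-gated potassium channel, was at 74.8 in S1, 50.9 in S2 and 37.7 in S3. *Ldhb*, a lactate dehydrogenase subunit, was at 129, 67.8 and 58.4 CPM in S1, S2 and S3. The 5 genes least like it were *Bmpr1a* (-0.89), *Ddx5* (-0.89), *Blmh* (-0.87), *Soga1* (-0.86) and *Fhl1* (-0.86), each lowest in S1 or S2.

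For *Rorb* the likeness was weaker. The 10 closest genes were *Enpp2* (0.76), *Tmem248* (0.74), *Rmnd5b* (0.70), *Top3a* (0.67), *Egf* (0.67), *Hmga2* (0.65), *Otulin* (0.65), *Rad51ap2* (0.64), *Egfl6* (0.64) and *Siah3* (0.63). *Enpp2*, which encodes autotaxin, was at 77.5 CPM in I6 and 56.8 in I5, and *Siah3* at 270 in I5 and 192 in I6. *Cobl* (-0.69), *Ankrd54* (-0.65), *Fam126a* (-0.64), *Ptchd1* (-0.63) and *Galnt7* (-0.62) were the least like it.

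Within S2 the nuclei were then divided by *Rora*. The choice of the gene did not use this split, but it used the higher level of *Rora* in S1 than in S2. Ranking S2 nuclei by *Rora* may thus also rank them by likeness to S1, and genes that differ between S1 and S2 may follow. This was not tested. In each of 8 libraries the S2 nuclei were ranked by *Rora* per 10000 corrected counts and cut into 3 ranges of equal size. The top range (high *Rora*) was summed and set against the bottom range (low *Rora*), 420 nuclei on each side, and a call needed a log2 fold change of at least 1 either way besides the adjusted p. The ranges are stretches of 1 value, not cell types, and a median of 25.3% of nuclei lay within 10% of a boundary. Of 11456 genes 264 were called, 2.3%, with 137 higher and 127 lower in nuclei with high *Rora*. Median totals per nucleus in the top range were 99.4 to 102% of those in the bottom range. Corrected totals vary little within any library (SD 5.85 to 10.7% of the mean). Here and in the other splits of a cluster they therefore cannot show whether the raw depth of the 2 sides was alike.

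*Rreb1*, a zinc finger factor given as a Type 3 marker, had the largest rise with *Rora*, at 2.97 ± 0.18 on the log2 scale (limma adjusted p = 2.57e-08). It was at 145, 43.5, 184, 185, 198, 118, 251 and 150 CPM in the top ranges and at 16.6, 0, 12.8, 20.9, 29.3, 16.9, 14.3 and 20.5 in the bottom ranges of cervical replicates 1 to 3, lumbar/sacral replicates 1 to 3 and thoracic replicates 1 and 2. The lowest top-range value, in the library labelled cervical replicate 2, was above all bottom-range values. *Prkcd* (2.64, a protein kinase C), *Galnt18* (2.27), *Ripor2* (2.09), *Ccbe1* (2.09), *Kcnn3* (2.07, a calcium-activated potassium channel), *Crtac1* (2.06), *Rasa4* (2.03, a Ras GTPase activator), *Prlr* (2.00, the prolactin receptor) and *Grin2c* (1.97, an NMDA receptor subunit) rose next.

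*Kcnq5*, a subunit of M-type potassium channels, was the most depleted with high *Rora*. It fell by 3.71 ± 0.45 (limma adjusted p = 5.14e-05), from 307 ± 172 CPM in the bottom ranges to 37.8 ± 63.9 in the top ranges, and was lower in 8 of 8 libraries. The groups overlapped through the top range of the library labelled cervical replicate 2, at 191 CPM. Of 3 listed markers of fast alpha MNs 2 were tested and 1 was called, beside 2.3% of all genes, the other being at -0.57. The called one, *Chodl*, fell by 3.55 ± 0.32 (limma adjusted p = 2.65e-06). Its top ranges were at 0 to 11.6 CPM and its bottom ranges at 29.0 to 253, with no overlap. *Nrp2* (-2.71), *Kcnt2* (-2.69, a potassium channel), *Cpne4* (-2.66), the unnamed gene *Gm28928* (-2.58), *Megf11* (-2.58), *Rspo2* (-2.29, a Wnt agonist) and the cadherins *Cdh8* (-2.28) and *Cdh6* (-2.28) fell next. Of the 20 genes named as most changed, 14 were called under every alternative run.

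**Figure D4:**
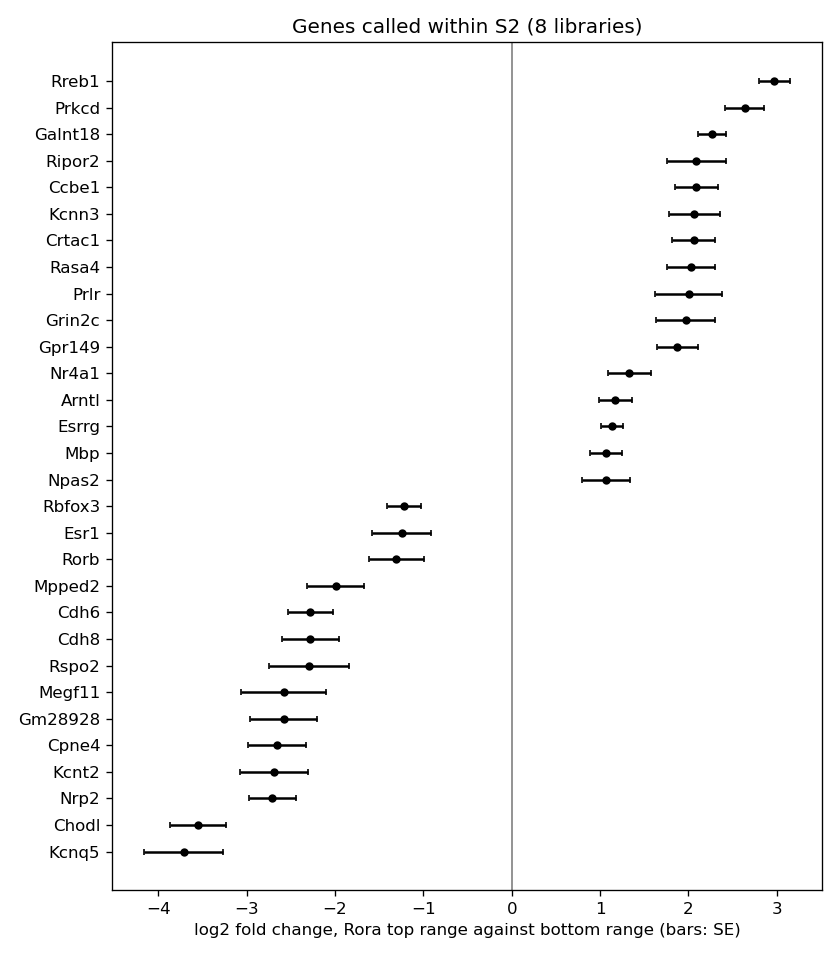
Log2 fold change (x axis, bars show the SE) of the genes called within S2 between the top and bottom range of nuclei by *Rora*, over 8 libraries. The plot holds the 10 largest changes each way and other called genes of the fixed lists and markers, from *Rreb1* at 2.97 to *Kcnq5* at -3.71.

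In the clock list 13 of 19 genes were tested, and 2 were called, both higher, beside 2.3% of all genes called. The list median was 0.11 beside 0.05 over all genes. So small a list does not show a result about the clock genes as a set. *Arntl* rose by 1.17 ± 0.19 (limma adjusted p = 0.000585). It was at 121, 40.6, 107, 120, 87.9, 101, 97.1 and 113 CPM in the top and at 59.2, 29.0, 34.7, 58.6, 22.0, 19.0, 48.5 and 69.7 in the bottom ranges, in the order of libraries given for *Rreb1*. It was higher in the top range of each of the 8 libraries, though the top-range value of the library labelled cervical replicate 2 lay among the bottom-range values. *Npas2*, a partner of BMAL1, rose by 1.06 ± 0.27 (limma adjusted p = 0.0251), a call that 10 of 15 alternatives did not keep. *Clock*, the other partner, was at -0.12 ± 0.13, *Nr1d2* at 0.42 ± 0.22 and *Cry2* at 0.56 ± 0.18, and these were not called.

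Sequences around *Arntl* are shown because it is both a gene that moved with *Rora* and a known ROR target. The motif AGGTCA, or TGACCT on the other strand, was searched in RefSeq promoters of GRCm38.p6, from 250 bases before to 50 after each start. The motif, counted also where matches overlap, was held by 18.1% of 27025 genes with a promoter and by 14.5% of the 8596 tested genes that have one. Of the called genes with a promoter it was held by 14 of 92 that were higher with *Rora* (15.2%) and by 19 of 98 that were lower (19.4%), and no test was run on these shares. Among the called higher genes named here *Arntl* and *Grin2c* held 1, and the promoters of *Rora* and *Rorb* held none. They are printed 5′ to 3′ on the strand of the gene with the motif in capitals.
Arntl, chr7:113207532-113207557, plus strand: ggcagaaagtAGGTCAgggacggagg
Grin2c, chr11:115267476-115267493, minus strand: caAGGTCAcacagctagg
The motif of *Arntl* begins at base 32 from one of its starts, counting the start as 1, and that of *Grin2c* begins 248 bases before its start. A match of 6 letters is a description and not evidence of binding.

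Of 12 cofactor genes all were tested and none was called by both criteria. *Ppargc1a* at 0.81 ± 0.19 and *Ncoa1* at 0.37 ± 0.08 had limma adjusted p of 0.0147 and 0.0102 but a fold change under the limit, as had *Nrip1* at -0.91 ± 0.25 (0.0368). Of 34 other nuclear receptors 28 were tested, and 2 were called higher and 1 lower, beside 2.3% of all genes called. *Nr4a1* (1.33 ± 0.24) and *Esrrg* (1.13 ± 0.12) rose and *Esr1* fell by 1.25 ± 0.33 (a call that 5 of 15 alternatives kept), with limma adjusted p of 0.00212, 2.21e-05 and 0.0329, and the list median was -0.01. *Esrrb*, listed as a marker of slow alpha MNs, was at 0.93 ± 0.19 (limma adjusted p = 0.00553), under the fold limit. *Sv2a*, the other listed one, was at 0.57 ± 0.30 (0.376). Neither was particular to alpha MNs here. *Esrrb* was at 214 CPM in S3, 182 in S1 and 59.1 in S2, and *Sv2a* was lowest of all clusters in S2, at 31.7.

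Markers of the skeletal clusters, sorted by their labels, moved in more than 1 direction. The Type 3 marker *Gpr149* rose by 1.88 ± 0.23 with *Rora*, the alpha marker *Rbfox3* (NeuN) fell by 1.22 ± 0.19, and the alpha markers *Stk32a* and *Sv2b* were at -0.27 ± 0.20 and -0.10 ± 0.13. The gamma marker *Nrp2* fell and *Esrrg*, also a gamma marker, rose, both called, as given above. *Gfra1* and *Plekhg1*, the other gamma markers, were at 0.52 ± 0.09 and 1.07 ± 0.34 and not called. The interneuron marker *Mpped2* fell by 1.99 ± 0.32 and the oligodendrocyte marker *Mbp* rose by 1.07 ± 0.18. *Rreb1*, *Gpr149* and *Esrrg*, which rose, were higher in S1 than S2 (252 against 96.0, 420 against 95.8, 1931 against 1004 CPM). *Nrp2*, *Rbfox3* and *Mpped2*, which fell, were lower in S1 (3.79 against 37.6, 35.8 against 229, 6.23 against 20.2). *Mbp* was alike in both (88.3 and 89.3), and *Gfra1* was lower in S1 (381 against 488). How near the S2 nuclei with high *Rora* lie to S1 was not tested. In S2 nuclei with no corrected count of *Gpr149*, in 6 libraries, 348 genes were called, 208 of them among the 264, and *Rreb1* (2.91), *Kcnq5* (-4.34), *Chodl* (-3.76) and *Arntl* (1.16) were all called.

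*Rorb* was lower in the S2 nuclei with high *Rora*, though all 1285 S2 nuclei together held only 226 corrected counts of it. *Rorb* was at 15.8, 2.90, 14.7, 23.2, 0, 15.03, 11.4 and 12.1 CPM in the top *Rora* ranges and at 43.6, 8.71, 47.5, 20.9, 51.2, 42.2, 45.6 and 24.6 in the bottom ranges, in the same order of libraries. It was lower in the top range of 7 of 8 libraries, all but lumbar/sacral replicate 1, and fell by 1.31 ± 0.31 (limma adjusted p = 0.0155). The call was kept by 7 of 15 alternatives. It was lost without lumbar/sacral replicate 2 (-0.99), without thoracic replicate 1 (-1.26) and in nuclei without *Gpr149* (-0.91, limma adjusted p = 0.105).

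Seen from *Rorb*, 5 libraries had at least 10 S2 nuclei with a corrected count of it. *Rora* was at 3770, 3540, 5863, 3321 and 5443 CPM in the nuclei with *Rorb* and at 5668, 6020, 5951, 5136 and 6871 in those without, in cervical replicates 1 and 3, lumbar/sacral replicates 1 and 3 and thoracic replicate 1. It was lower by 0.47 ± 0.08 on the log2 scale (limma adjusted p = 0.0135), in 5 of 5 libraries but under the fold limit for a call. Of 10530 genes 11 were called, 0.104%. *Kcnq5* (1.32), *Prima1* (1.15), *Megf11* (1.10), *Arhgap6* (1.10) and *Prkca* (1.02) were higher, and *C1qtnf4* (-1.81), *Shisa9* (-1.64), *Gabrg3* (-1.63), *Chl1* (-1.56), *Cacna2d1* (-1.47) and *Prkcd* (-1.23) lower, with *Rorb*. These calls rest on few nuclei, 154 with *Rorb*, and dropped to 1 or 2 genes without any of cervical replicate 1 or 3, lumbar/sacral replicate 3 or thoracic replicate 1, and were 24 without lumbar/sacral replicate 1.

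In V2, *Rora* did not follow *Rorb*. Over 6 libraries it was at -0.06 ± 0.14 in nuclei with *Rorb* (limma adjusted p = 0.957). There 6 genes were called, 0.0545%, all lower with *Rorb*, namely *Grm8* (-2.004, a metabotropic glutamate receptor), *Tenm2* (-1.56), *Cntn5* (-1.55), *Edil3* (-1.43), *Pcdh9* (-1.36) and *Cdh18* (-1.14). None of the lists of the ROR pathway held a called gene in this comparison. Without lumbar/sacral replicate 1 or 3, 1 gene was called, and without cervical replicate 1 or thoracic replicate 1, 3 were.

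In S1 and S3 few genes were called between nuclei with high and low *Rora*, by adjusted p and the fold limit together. An unadjusted p under 0.05 was held by 1306 of 11361 genes in S1 and 949 of 10688 in S3, beside 1888 of 11456 in S2. The upper quartile of *Rora* was 1.43 times the lower in S1 and 2.13 times in S3, against 2.70 times in S2. The part of this spread in the number of calls was not tested. Within S1, 21 of 11361 genes were called over 9 libraries, 0.185%, all lower with high *Rora*. Genes detected per nucleus in the top range were a median of 96.7% of those in the bottom range (84.6 to 102% by library), and median totals were 92.7 to 102%. The part of this in the calls was not tested. The calls were led by *Dscaml1* (-1.82), *Ebf2* (-1.77), *Grm5* (-1.60), *Kcnmb2* (-1.49), *Unc13c* (-1.37), *Pced1b* (-1.35), *Plppr1* (-1.34), *Kcnt2* (-1.34), *Pard3b* (-1.25) and *Cacna1e* (-1.24). The interneuron marker *Pax2* (-1.05) was among the 21. Without the S1 nuclei that had *Pax2*, 13 genes were called, 11 of them among the 21, and without the library labelled cervical replicate 2, 33 were. *Arntl* was at 0.27 ± 0.10 in S1 (limma adjusted p = 0.235) and higher in 8 of 9 libraries. Within S3, *Kcnmb2*, a subunit of calcium-activated potassium channels, fell by 1.22 ± 0.19 (limma adjusted p = 0.00162) and was the only gene called, 0.00936% of those tested. *Arntl* was at -0.02 ± 0.12 there. In S3 the top range had a median of 92.6% of the genes detected in the bottom range (89.4 to 99.4%) and 91.5 to 100.2% of its totals, whose part was not tested.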

How the data were processed

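Single-nucleus RNA-seq (10x Chromium 3′ kit, version 3) was made from sorted GFP+ nuclei in 9 libraries. Per the labels and the study's methods, reads were mapped by Cell Ranger 3.1.0 on a pre-mRNA GRCm38 reference, outlying nuclei were removed and each region was normalized by SCTransform in Seurat. The deposited values are whole-number corrected counts, a score from a model rather than counts of molecules. The plan named edgeR for raw counts, so it was not run. No doublet caller was run, and the authors' cluster labels were used as given. The members and gene lists were chosen with earlier results of these data known.

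Corrected counts were summed per library and cluster (at least 10 nuclei) and scaled to CPM. Differences were tested by limma 3.58.1 (R 4.3.3, intensity trend) on log2(CPM + 5), for genes at 10 CPM or more in at least 3 sums, with Benjamini-Hochberg adjustment over all genes and no replicate block. Within clusters, library was a term, and the gene that divided the nuclei was not tested. The sex pools are given as values, since each sex is 1 pool, and the planned limma test of them is not reported. Fold changes on this scale understate those of low genes. Named genes were the 10 most and 5 least like each member, the 10 largest called changes each way within a cluster and called members of fixed lists. Other genes named are label checks and markers. Some listed genes are not reported here. Sums of 21457 genes were simulated, 200 of them changed by a log2 fold of 2. They were drawn independently with a dispersion of 0.02, without the likeness between libraries of the same mice. In this setting limma recovered 97.5% (V2 by region), 100.0% (interneurons by region), 99.5% (*Rora* in S2) and 95% (*Rorb* in V2). Of its calls 3.47, 6.10, 0.995 and 3.06% were false. These rates do not cover genes that vary more between libraries.

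Same-numbered libraries come from the same mice. Their deviations from the region means correlated with a median r of 0.33 to 0.75 by cluster or class and a lowest r of -0.22. Alternatives were other scalings, pseudocounts, filters and nucleus minimums, thinning to 4600 corrected counts (seed 1, leaving out 8.63% of nuclei), the replicate block and leaving out libraries. Other calculations used Python 3.11.15. Replicates are pools of 4 mice, and p-values measure the spread between these samples.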

Additional observations from a re-analysis of the deposited data

Results flagged for a closer look

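Expression of *Rorb* by region differed between clusters, by a test of the difference itself. The lumbar/sacral difference from the other libraries was lower in V2 than in I2 by 2.55 on the log2 scale, a value of -2.55 ± 0.36, and lower in I6 than in I2 by 2.06, a value of -2.06 ± 0.27. The limma adjusted p over all genes was 0.000124 and 1.24e-05. These clusters were picked after their *Rorb* levels were seen, and I2 was the one of them with the highest region difference. No contrast with I5 was run. The listed skeletal markers *Tns1* and *Prph*, the second also found in visceral MNs, moved with region in V2, and their part was not tested. In I6 the excitatory and inhibitory neuron markers moved with region, and their part was not tested either.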

How the results depend on the processing

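Of 1369 values recomputed under alternatives, 1098 kept their direction and side of the threshold. With the replicate block, which pairs libraries of the same mice, *Rorb* by region was unchanged at -1.87 in V2 (limma adjusted p = 0.0118) and -1.38 in I6 (0.00205), and no region call changed. *Rora* by region changed sign, uncalled throughout, in S2 under median-of-ratios scaling (-0.0749) and without both male-pool rostral libraries (-0.0476), in interneurons without these (-0.0140) and after thinning (-0.0224), and in I5 under that scaling (-0.0451), with at least 20 nuclei (-0.19) and without these libraries (-0.17). Leaving out 1 library gave -0.10 to 0.21 in S2, -0.0092 to 0.22 in interneurons and -0.19 to 0.18 in I5 for *Rora*, and -2.07 to -1.67 in V2 and -1.49 to -1.19 in I6 for *Rorb*. The log2 difference of the male from the female pool, which has no test, ran with 1 library left out from -0.29 to 0.0682 for visceral *Rora*, -1.01 to 0.83 for visceral *Rorb* and -0.26 to 0.0274 for interneuron *Rorb*. Interneuron *Rorb* by region (-0.59) had an exact permutation p of 0.0119, unadjusted and the smallest that 84 groupings allow. With pseudocount 1, 1 gene was called with *Rorb* in S2 and 0 in V2, and with pseudocount 20, 3 in S2. With pseudocount 20, 1, 110 and 0 genes were called with *Rora* in S1, S2 and S3. With no filter on low values the calls were 0 (*Rorb*, S2), 0 (*Rorb*, V2), 0 (S1), 139 (S2) and 0 (S3), where more genes were tested. With at least 20 nuclei they were 28 (*Rorb*, S2), 14 (*Rorb*, V2) and 33 (S1). At least 2 corrected counts of *Rorb* gave 29 in S2, S1 nuclei without *Pax2* gave 13, and a single cut at the median of *Rora* gave 9, 92 and 0 in S1, S2 and S3. Leaving out 1 library gave 1 to 24 (*Rorb*, S2), 1 to 6 (*Rorb*, V2) and 17 to 33 (S1), and -0.21 to 0.0037 for *Rora* with *Rorb* in V2, where leaving out lumbar/sacral replicate 2 gave 0.0031. The causes were not tested.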
